A study of Rattus norvegicus with 8 samples.

Results

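The RT1 class I genes of the rat and the genes that load peptide onto their products were read in vessel RNA of control and hypertensive male rats. The members are all non-control array probes whose transcript belongs to a rat gene with a symbol starting RT1-, except the RT1-B and RT1-D class II genes. Added to these are the probes of B2m, Tap1, Tap2, Tapbp, Psmb8, Psmb9, Psmb10, Nlrc5 and Erap1. The genes were chosen by symbol, and the set was proposed with its measured differences between the groups already known. This gave 40 genes, read by 54 probes, among 16678 genes that could be named from 45598 probes. A probe was kept where the scanner program marked it well above background on 3 or more arrays of either group, which left 46 probes for 33 of the genes and 27822 probes in all. Every kept member was above background on all 8 arrays, so no member was kept through 1 group alone. The 8 probes not kept are those of RT1-M1-2, RT1-M1-4, RT1-M1-5, RT1-M5, RT1-M6-1, RT1-T24-2 and RT1-Ha and 1 of the 2 probes of RT1-T18. RT1-Ha, which the rule takes in by its name, is a class II type gene. Another 27 genes that the rule names were matched to no probe. Of these 19 are pseudogenes, and the others are Erap1, Nlrc5, RT1-CE1, RT1-CE2, RT1-CE14, RT1-M10-1, RT1-O1l1 and RT1-T24-1.

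Vessel RNA came from 4 male Wistar-Kyoto control rats, a normotensive laboratory strain, and from 4 male rats of a hypertensive disease model, with 1 array per rat. The strain entry of the model rats also reads Wistar-Kyoto, so their strain is not settled here. Age, treatment and the vessel taken are not given in the sources used here. All levels below are log2 signal minus the 75th percentile of the same array, and all differences are disease model minus Control. The ± after a mean is the SD over 4 arrays, and the ± after a difference is its standard error from limma, a linear model fitted to every probe. Their differences and calls are therefore a description and no test. A call means an adjusted p under 0.05 in the limma fit over all kept probes. Since nothing says how the RNA samples of a group were kept apart beyond being 1 rat each, the spread includes both rat and array.

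Class I molecules sit on the surface of nearly all nucleated cells and show peptides from inside the cell to CD8 T cells and natural killer cells. The heavy chain, from an RT1 gene, pairs with the light chain beta-2 microglobulin, and peptide reaches it through cutting by the proteasome, pumping by the TAP transporter and loading with the help of tapasin. In the rat, RT1-A genes encode the classical heavy chains, while the RT1-CE, RT1-N, RT1-S, RT1-T and RT1-M genes are class Ib or related genes, whose number and sequence vary between strains. Interferons raise many genes of this pathway. In vessels, endothelium, smooth muscle and resident leukocytes all carry class I.

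The scaling value, each array's 75th percentile, ran from 405.2 to 503 signal units over the Control group and from 357 to 477.6 over the disease model group. No gene spot was saturated. The first principal component separated the groups. The second, with 17.3% of the variance, set disease model replicate 4 (-47.5) apart from the other arrays (-13.3 to 26.5). The smooth muscle genes Myh11 and Acta2 and the endothelial genes Pecam1 and Vwf were well above background on all 8 arrays. The array sequences of the probes were not used here, and RT1 genes are close copies of each other. Which family member a probe reads is therefore uncertain, and reads of several genes may be mixed in 1 probe. Bulk RNA cannot tell fewer cells of a type from less RNA per cell.

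The RT1 heavy chain probes differed in both directions, while none of the light chain and peptide loading probes was called. Of the 46 kept probes, 18 were called higher and 5 lower in the disease model and 23 were not called. Among all kept probes 4.37% were called, 2.45% higher (683) and 1.91% lower (532). Which direction prevailed over all probes turned with the scaling, to 463 higher and 740 lower with median centring and 566 and 664 with quantile scaling. Because the comparison is the one the members were proposed from, nothing is read from the gap between these shares. All 23 calls belong to RT1 genes (37 probes of 26 genes), and none to the 9 probes of the 7 other genes. The groups did not overlap for 21 probes with higher and 9 with lower values in the disease model. Among all kept probes this share was 13.4%, made up of 7.53% higher and 5.86% lower. The absolute difference had a median of 0.73 over the RT1 probes, 0.33 over the other member probes and 0.15 over all kept probes. With median centring in place of the 75th percentile, 15 members were called higher and 7 lower. Without control replicate 2, 21 were called higher, and without disease model replicate 4, 20 were called higher and 7 lower. Each of the other 6 single-array omissions gave 15 or 16 called higher and 5 or 6 lower.

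RT1-CE genes lie in 1 cluster and held most of the calls, 12 higher and 1 lower among 16 probes of 11 genes. Their median difference was 1.01, against 0.04 over all kept probes. The lower one was RT1-CE5, read by 1 probe and matched through a transcript of a gene that also goes by the names RT1-E2 and rt1-El. RT1-CE5 had levels of 4.81, 5.25, 4.75 and 4.86 in the 4 Control arrays and of 0.90, 0.70, 1.17 and 1.25 in the disease model arrays. The lowest Control array was thus over 3 log2 units above the highest disease model array. The mean was 4.92 ± 0.23 (SD, n = 4) in Control and 1.0 ± 0.25 in the disease model. The difference was -3.91 ± 0.15, a 15.1-fold lower signal on this 1 probe. Leaving out any 1 array gave -3.99 to -3.80. Whether the number or sequence of RT1 genes differs between the groups, and with it the match to the probe, was not tested.

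The largest higher value in this cluster came from 1 of the 2 probes of RT1-CE3. That probe, A_64_P116954, had levels of 0.96, 1.41, 0.85 and 0.92 in Control and 2.67, 2.77, 2.66 and 2.89 in the disease model, a difference of 1.71 ± 0.13 (3.27-fold). The groups lay well apart. The other RT1-CE3 probe, A_44_P274061, went the opposite way, at 2.98, 3.22, 2.77 and 2.89 in Control and 2.35, 2.39, 2.25 and 2.70 in the disease model. Its groups did not overlap either, but its difference of -0.54 ± 0.13 was not called. It was called without disease model replicate 4 (-0.64) and with normexp background correction, median centring, array weights or the filter for detection on all 8 arrays. Both probes carry the same transcript accession, so no single direction can be given for RT1-CE3.

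RT1-CE15 was higher on both probes. The one with the larger difference read -0.03, 0.39, -0.04 and 0.01 in Control and 1.45, 1.57, 1.55 and 1.75 in the disease model (1.49 ± 0.12, 2.82-fold). The other RT1-CE15 probe differed by 1.13 ± 0.13. RT1-CE16 read 4.88, 5.14, 4.74 and 4.72 in Control and 6.17, 6.22, 6.04 and 6.46 in the disease model on one probe (1.35 ± 0.13, 2.56-fold) and differed by 0.96 ± 0.12 on the other. Every disease model array was above every Control array on these 4 probes. RT1-CE4 read 2.35, 2.47, 2.28 and 2.26 in Control and 3.60, 3.60, 3.44 and 3.84 in the disease model (1.28 ± 0.10, 2.43-fold). RT1-CE7 read 2.33, 2.49, 2.20 and 2.27 against 3.52, 3.51, 3.37 and 3.75 (1.21 ± 0.11, 2.32-fold). The groups were again apart for both genes. The second RT1-CE7 probe differed by 0.58 ± 0.12. Only the omission of control replicate 2 or disease model replicate 4 left that call in place; the other 6 omissions ended it, with differences of 0.54 to 0.63.

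RT1-CE13 was higher by 1.13 ± 0.12 and 0.66 ± 0.11 on its 2 probes, RT1-CE12 by 0.89 ± 0.13 and RT1-CE6, annotated as a long noncoding RNA, by 1.06 ± 0.12. With normexp background correction, which shrinks changes of dim probes, RT1-CE6 was higher by 0.53. These calls held without any 1 array. RT1-CE11 and RT1-CE10 were close to equal in the groups. RT1-CE11 read 2.85, 3.21, 2.92 and 2.85 in Control and 2.91, 2.90, 2.83 and 3.17 in the disease model, a difference of -0.00094 ± 0.11. RT1-CE10 differed by 0.08 ± 0.10. Both groups overlapped on these 2 probes, which lie in the gene order between the higher RT1-CE13 and the lower RT1-CE5.

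**Figure D1:**
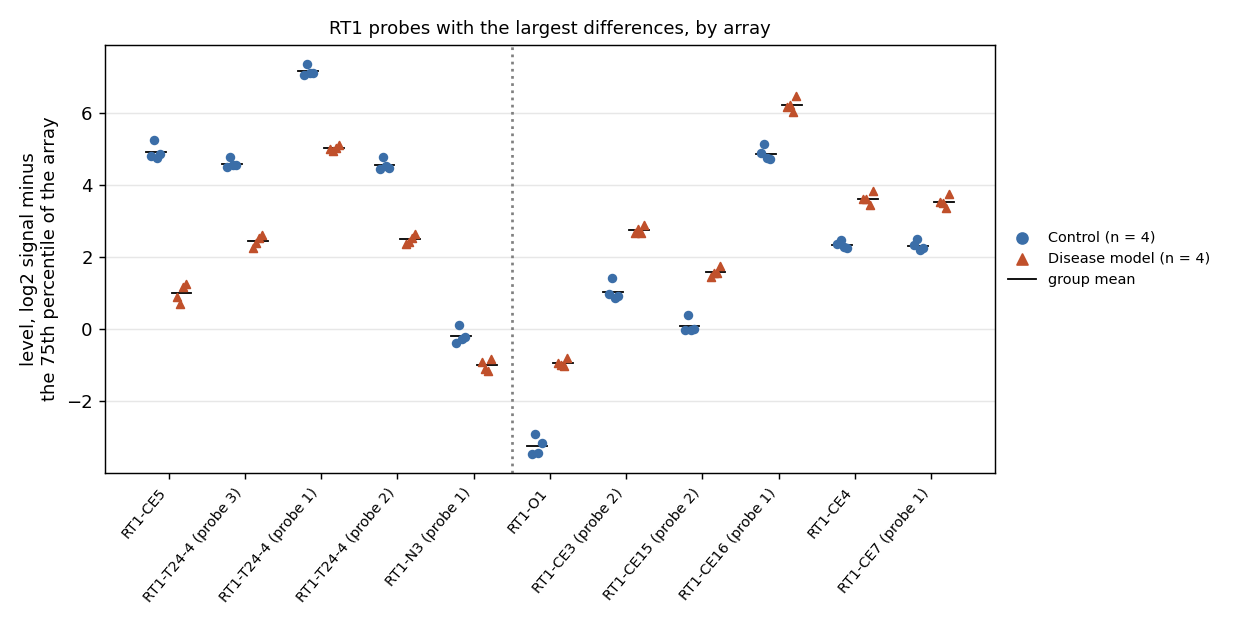
Levels (log2 signal minus the 75th percentile of the array) of the RT1 probes with the largest called differences, with 1 point per array (circles Control, triangles disease model, 4 each) and a line at each group mean. Left of the dotted line RT1-CE5, 3 probes of RT1-T24-4 and 1 of RT1-N3 are lower in the disease model, and right of it 6 probes from RT1-O1 to RT1-CE7 are higher, with no overlap of the groups on any of them.

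The classical RT1-A genes, which lie beyond the class II region near Tapbp, were higher by smaller amounts. RT1-A1 read 8.38, 8.79, 8.41 and 8.46 in Control and 9.32, 9.25, 9.19 and 9.21 in the disease model. Its difference was 0.73 ± 0.10 (1.66-fold), the one call among 4 RT1-A probes. RT1-A2 read 7.5, 7.79, 7.43 and 7.5 in Control and 8.0, 7.90, 7.82 and 7.86 in the disease model (0.35 ± 0.10). The 2 probes of RT1-A3 differed by 0.38 ± 0.11 and 0.35 ± 0.10. None of the 4 RT1-A probes had overlapping groups, although 3 were not called. With normexp RT1-A2 and the first RT1-A3 probe were called, and with array weights the second. Without control replicate 2, RT1-A2 (0.42) and the first RT1-A3 probe (0.47) were called, and without disease model replicate 4 the second RT1-A3 probe was (0.42).

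The letters before the start sites are shown for the RT1-A and RT1-CE genes with a recognisable enhancer A. Whether these letters bear on the differences between the groups was not tested. Enhancer A is the kappa-B type element of class I promoters, and just downstream of it lies an element that interferon regulatory factors bind. The sequences are RefSeq's for assembly GRCr8, which is a BN rat and not one of the animals measured. Of the 67 genes named by the rule 41 had a promoter entry, 15 of them RT1-A or RT1-CE genes. The enhancer A core GGGANTCCC was searched in the 250 bases before the start, allowing 1 mismatch, with the interferon element GAANNGAAA on either strand required within the same 40 bases. Of the 15 genes 11 had such a place, each of them 1. RT1-CE12, RT1-CE7 and RT1-CE6 are not among the 11, and whether each had a promoter entry to search is not given here. Capitals mark the core and, after it, the interferon element.
RT1-A1: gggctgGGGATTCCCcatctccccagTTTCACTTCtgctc
RT1-A2: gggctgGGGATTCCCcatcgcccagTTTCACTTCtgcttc
RT1-A3: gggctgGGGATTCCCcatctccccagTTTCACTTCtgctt
RT1-CE16: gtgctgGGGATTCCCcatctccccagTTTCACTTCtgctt
RT1-CE15: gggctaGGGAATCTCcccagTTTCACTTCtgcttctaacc
RT1-CE13: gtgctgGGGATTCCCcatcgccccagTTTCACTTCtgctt
RT1-CE11: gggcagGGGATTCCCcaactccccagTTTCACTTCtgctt
RT1-CE10: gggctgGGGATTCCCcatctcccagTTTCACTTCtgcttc
RT1-CE4: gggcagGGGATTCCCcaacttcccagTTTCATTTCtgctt
RT1-CE3: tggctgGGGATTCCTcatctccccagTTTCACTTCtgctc
RT1-CE5: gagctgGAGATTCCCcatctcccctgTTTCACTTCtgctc
The places are RT1-A1 at chr20:4907078-4907117, RT1-A2 at chr20:4872692-4872731, RT1-A3 at chr20:4849276-4849315, RT1-CE16 at chr20:3265540-3265579, RT1-CE15 at chr20:3283909-3283948, RT1-CE13 at chr20:3322890-3322929, RT1-CE11 at chr20:3363338-3363377, RT1-CE10 at chr20:3385139-3385178, RT1-CE4 at chr20:3509316-3509355, RT1-CE3 at chr20:3525308-3525347 and RT1-CE5 at chr20:3484223-3484262, the RT1-A genes on the plus and the RT1-CE genes on the minus strand. Counted from 1 at the first base of GGGANTCCC, RT1-CE5 carries the substitution G2A, RT1-CE3 carries C9T and RT1-CE15, where the elements lie closer together, carries C8T, while the other 8 match the core in full. RT1-CE11, RT1-CE10, RT1-CE16 and RT1-CE4 match the same 2 motifs. The letters at the N positions of GAANNGAAA differ in RT1-CE4, and RT1-CE10 has a gap between the elements that is 1 base shorter.

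The full core was in 185 of 33469 rat promoters of the same length (0.553%), and 8 of the 185 are these RT1 genes. GAANNGAAA was in 7.12% of all promoters, in 11 of the 15 RT1-A and RT1-CE promoters and in 2 of the 19 other RT1 promoters. GAAANNGAA, the spacing of the general interferon response element, was in 8.12% of all promoters, in none of the 15, in 5 of 7 promoters of the loading genes (B2m, Psmb10, Tap1, Tap2 and Tapbp) and in 3 of the 19 (RT1-S2, RT1-N3 and RT1-S3). TGACG, found in the X2 element, was in 18.2% of all and 5 of the 15. CCAAT, the Y box, was in 34% of all and 11 of the 15. All 5 were searched on both strands, and GAANNGAAA and GAAANNGAA can overlap each other. The motifs were chosen with these promoters in view, and a match is letters only.

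The 250 bases before the start are shown for the 3 genes with the largest differences, RT1-CE5, RT1-T24-4 and RT1-O1, with matches to any of the 5 motifs in capitals.
RT1-CE5: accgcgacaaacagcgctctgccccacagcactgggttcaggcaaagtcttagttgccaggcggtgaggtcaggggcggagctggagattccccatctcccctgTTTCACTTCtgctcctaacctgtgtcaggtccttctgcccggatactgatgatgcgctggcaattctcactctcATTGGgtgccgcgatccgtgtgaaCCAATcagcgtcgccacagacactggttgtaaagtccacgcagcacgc
RT1-T24-4: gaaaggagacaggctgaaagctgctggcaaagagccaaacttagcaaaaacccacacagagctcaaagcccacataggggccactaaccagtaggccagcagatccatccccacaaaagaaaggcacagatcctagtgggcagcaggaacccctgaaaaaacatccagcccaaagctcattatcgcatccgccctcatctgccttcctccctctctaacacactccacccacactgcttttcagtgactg
RT1-O1: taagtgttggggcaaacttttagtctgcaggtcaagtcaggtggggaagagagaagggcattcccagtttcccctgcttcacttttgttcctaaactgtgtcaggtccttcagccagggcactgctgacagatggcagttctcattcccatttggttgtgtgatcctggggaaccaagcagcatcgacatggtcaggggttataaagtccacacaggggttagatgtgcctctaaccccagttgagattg
They lie in GRCr8 at chr20:3484091-3484340 on the minus strand, chr20:2689083-2689332 on the plus strand and chr20:2659687-2659936 on the plus strand. RT1-CE5 holds 3 full matches, 1 to GAANNGAAA and 2 to CCAAT, while the windows of RT1-T24-4 and RT1-O1 hold no match to any of the 5.

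The RT1-N, RT1-O, RT1-S and RT1-T genes form a second cluster in which neighbours differed in opposite directions. Of 12 kept probes of 8 genes, 4 were called higher and 4 lower. RT1-O1 had the largest higher value of all members on this scale, at -3.46, -2.91, -3.43 and -3.15 in Control and -0.95, -0.99, -1.03 and -0.81 in the disease model. The mean was -3.24 ± 0.26 (SD, n = 4) in Control and -0.94 ± 0.10 in the disease model, a difference of 2.29 ± 0.13 (4.90-fold). All 4 disease model arrays were close together and far above Control, and with normexp background correction the difference was 1.52, below the 1.64 of the higher RT1-CE3 probe.

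RT1-T24-4, which also goes by the mouse name H2-T24, was lower on all 3 probes by almost the same amount. The first read 7.06, 7.36, 7.10 and 7.13 in Control and 5.0, 4.95, 5.04 and 5.12 in the disease model (-2.13 ± 0.09, 4.38-fold lower). The second read 4.43, 4.79, 4.53 and 4.47 against 2.37, 2.42, 2.54 and 2.63 (-2.07 ± 0.11), and the third 4.49, 4.79, 4.56 and 4.54 against 2.25, 2.40, 2.53 and 2.61 (-2.15 ± 0.11). The 3 differences lay within 0.08 of each other, less than 1 standard error, and the groups were more than 1 log2 unit apart on each probe. The probe of RT1-T24-3, a close neighbour, differed by -0.21 ± 0.16 with overlapping groups. RT1-N3, between RT1-O1 and RT1-S3 in gene order, was lower on its first probe, at -0.39, 0.12, -0.28 and -0.22 in Control and -0.91, -1.1, -1.17 and -0.83 in the disease model (-0.81 ± 0.13, 1.75-fold lower). Its second probe differed by -0.42 ± 0.12 and was not called, but it was without disease model replicate 4 (-0.52), with normexp and with array weights. RT1-N2 differed by -0.41 ± 0.12 and was not called, but it was with normexp and with median centring.

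RT1-S3, the rat counterpart of mouse H2-T23, whose product shows leader peptides of other class I chains to natural killer cell receptors, gave 2 answers. One probe, A_44_P128151, was higher, at 3.67, 3.86, 3.45 and 3.50 in Control and 4.59, 4.51, 4.38 and 4.84 in the disease model (0.96 ± 0.13, 1.95-fold). The other, A_44_P454420, read 3.31, 3.25, 3.09 and 3.03 in Control and 2.94, 3.02, 2.77 and 2.92 in the disease model (-0.26 ± 0.10, not called, although it was with normexp at -0.31). Neither probe had overlapping groups, so the direction of RT1-S3 depends on the probe. RT1-S2 was higher by 0.85 ± 0.12 (1.81-fold) and RT1-T18, a relative of the mouse thymus leukaemia antigen, by 0.61 ± 0.12. For RT1-T18, too, the call ended when control replicate 1, 3 or 4 or disease model replicate 1, 2 or 3 was left out (0.54 to 0.64).

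RT1-M genes lie at the far end of the complex among olfactory receptor genes, and 5 of their 10 probes were kept. RT1-M3-1, whose product shows formylated peptides of bacteria and mitochondria, had nearly equal groups on both probes (0.05 ± 0.10 and 0.06 ± 0.14). RT1-M2 differed by -0.06 ± 0.18, and RT1-M4 by 0.45 ± 0.18, called without disease model replicate 4 alone (0.63). RT1-M6-2 was the called one, at 4.88, 5.11, 4.72 and 4.67 in Control and 5.47, 5.43, 5.31 and 5.62 in the disease model (0.61 ± 0.12). Its groups did not overlap, but leaving out control replicate 1, 3 or 4 or disease model replicate 1 or 2 ended the call (0.55 to 0.62).

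**Figure D2:**
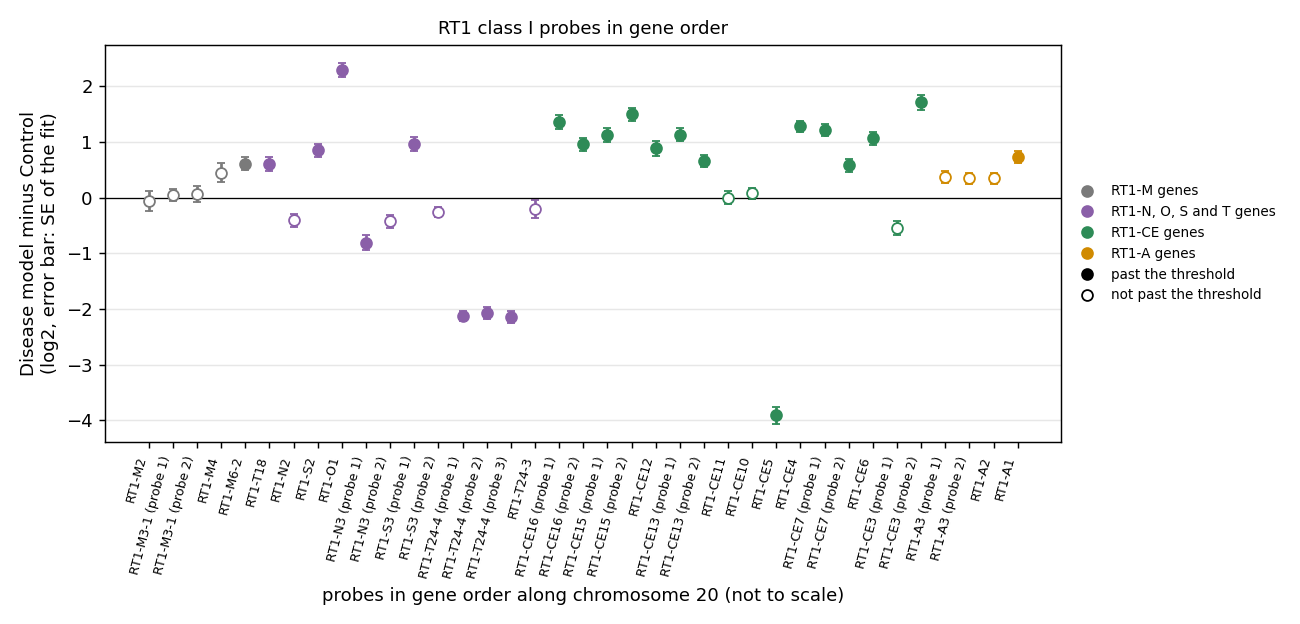
Difference (disease model minus Control, log2, error bar the standard error of the fit) for the 37 kept RT1 probes, in the order of their genes along chromosome 20 and not to scale, coloured by gene group, filled where called. Differences of opposite sign lie next to each other, from RT1-O1 at 2.29 to RT1-T24-4 near -2.1 in one cluster and RT1-CE5 at -3.91 amid mostly higher RT1-CE probes in the other.

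Where a gene had several kept probes, they mostly differed in the same direction. This held for 10 of 12 such genes, RT1-CE3 and RT1-S3 being the exceptions. The gap between the differences of a gene's probes ran from 0.01 for RT1-M3-1 to 2.25 for RT1-CE3. It was 0.64 for RT1-CE7, 0.47 for RT1-CE13 and 0.39 for RT1-CE16. For RT1-T24-4, Tap2 and RT1-A3 it was under 0.1. The levels of a gene's probes could still lie far apart, with Control means of 8.38 and -1.67 on the 2 RT1-A3 probes.

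The light chain and peptide loading genes had no call with all 8 arrays at the 75th percentile scaling. B2m, the shared light chain, read 7.79, 7.99, 7.80 and 7.85 in Control and 7.94, 8.01, 7.83 and 8.02 in the disease model. The groups overlapped, with a difference of 0.09 ± 0.08. The immunoproteasome subunit gene Psmb8 read 2.25, 2.64, 2.17 and 2.23 in Control and 2.74, 2.87, 2.60 and 3.03 in the disease model (0.48 ± 0.13). Only control replicate 2 reached into the range of the disease model, and without it the difference was 0.59 and was called, as it also was with normexp (0.47). The other 2 immunoproteasome subunits differed by 0.23 ± 0.10 (Psmb9) and -0.02 ± 0.11 (Psmb10).

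The transporter genes Tap1 and Tap2 had negative differences on all 4 probes. Tap2 differed by -0.55 ± 0.24 and -0.52 ± 0.26. Its disease model arrays were spread out, at 0.69, 0.36, -0.11 and -0.39 on one probe, against 0.52, 1.08, 0.63 and 0.50 in Control, and the groups overlapped. Tap1 differed by -0.49 ± 0.18 and -0.33 ± 0.15, with the first probe called without control replicate 3 alone (-0.67). Tapbp, which encodes tapasin, differed by 0.01 ± 0.11. In gene order Tap2, Psmb8, Tap1 and Psmb9 follow each other directly, and their differences alternated in sign.

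**Figure D3:**
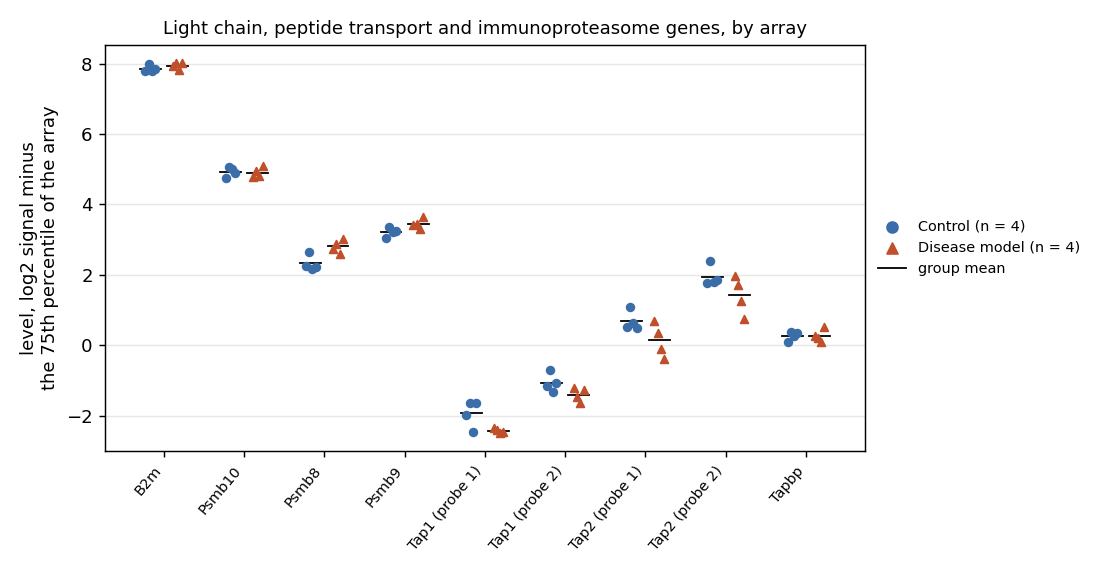
Levels (log2 signal minus the 75th percentile of the array) of the light chain, transporter, tapasin and immunoproteasome probes, with 1 point per array (circles Control, triangles disease model, 4 each) and a line at each group mean. The groups overlap on all 9 probes, least for Psmb8 (0.48 ± 0.13), and Tap2 is the most spread in the disease model.

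Within each group the RT1 probes moved together from array to array, a comparison that does not use the difference between the groups. Control replicate 2 was the highest Control array on 34 of 37 RT1 probes and on 9 of the 9 other member probes, while it was the highest for 28.4% of all kept probes. Its RT1 probes lay a median of 0.26 above the Control mean, against 0.01 for all kept probes. Disease model replicate 4 was the highest of its group on 27 of the 37 RT1 probes, against 24.2% of all kept probes, with a median of 0.16 above the group mean. Disease model replicate 3 was the lowest on 24 of 37, against 19.2% of all. Probes that read close copies share signal, so the 37 are not independent. Control replicate 2 also had the lowest 75th percentile of the Control arrays (405.2), and disease model replicate 4 stood apart on the second component; their part in these levels was not tested. Without either array the 23 calls were all kept.

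**Figure D4:**
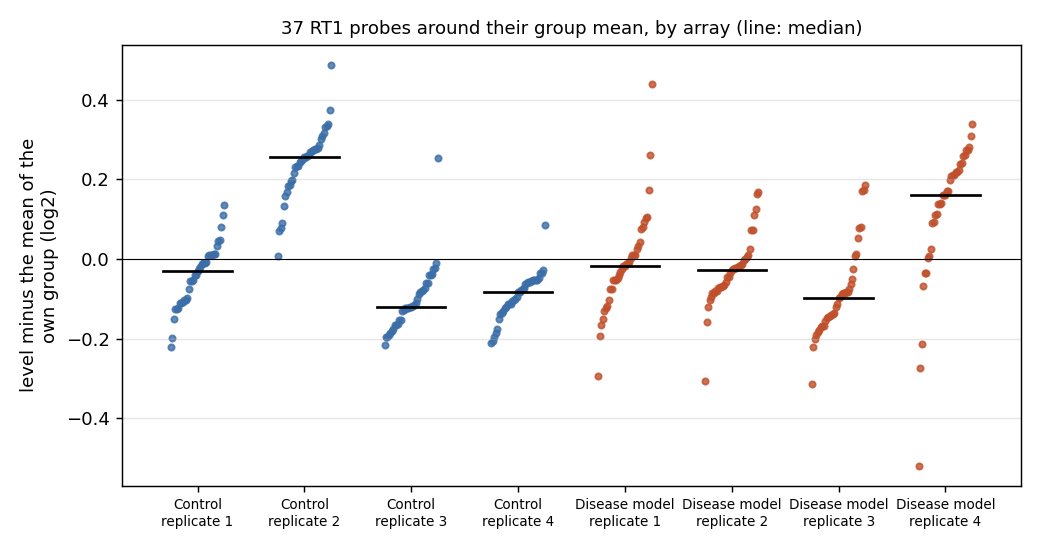
Level of each of the 37 kept RT1 probes minus the mean of its own group (log2), by array, sorted within each array, with a line at the median. Control replicate 2 (median 0.26) and disease model replicate 4 (0.16) lie above their groups for most RT1 probes, and control replicate 3 (-0.12) and disease model replicate 3 (-0.10) below.

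Other genes of the pathway, which are not members, came from 6 lists. Counts are over probes, and the adjusted p is from limma with Benjamini-Hochberg adjustment over all 27822 kept probes. Of 20 probes for 19 constitutive proteasome and activator genes none passed. The smallest p were those of Psma7 (-0.30 ± 0.09, adjusted p = 0.0904) and Psma4 (0.21 ± 0.08, adjusted p = 0.217), both core subunits. Of 21 probes for 14 chaperone and peptide handling genes of the endoplasmic reticulum none passed. The tapasin-like editor gene Tapbpl differed by 0.49 ± 0.14 (adjusted p = 0.0971), and Lnpep, an aminopeptidase, by 0.29 ± 0.11 on 1 of 5 probes (adjusted p = 0.194). Medians were -0.04 and 0.04, beside 0.04 over all kept probes.

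Of 39 probes for 26 genes of class I transcription and interferon signalling, 2 fell and none rose, both for Socs3, a feedback inhibitor of cytokine signalling. Socs3 read 4.65, 3.99, 5.19 and 4.06 in Control and 3.09, 2.85, 2.51 and 2.61 in the disease model on one probe (-1.71 ± 0.26, limma adjusted p = 0.0083). The groups lay apart. Its other probe differed by -1.23 ± 0.26 (limma adjusted p = 0.034), a call that, of the 8 single-array omissions, survived only those of control replicate 2 or disease model replicate 1, and with -1.44 to -1.05 over the 8 single-array omissions. Of 28 probes for 25 interferon-stimulated genes 1 fell, for Eif2ak2, the kinase that senses double-stranded RNA (-1.16 ± 0.11, adjusted p = 0.00073), while its second probe differed by -0.04. Ifit1, chosen after its values were seen, had no Control array well above background and 3 of 4 disease model arrays, at -7.06, -4.62, -3.57 and -3.45 (adjusted p = 0.0714). Cxcl9, well above background on all 8 arrays, differed by -1.06 ± 0.28 (limma adjusted p = 0.0762). Its groups overlapped, and with normexp its difference was -0.54. The list's median was -0.11. Of 8 probes for 7 class I-like genes outside the complex none passed, with Fcgrt, the neonatal Fc receptor, at -0.49 ± 0.16 (adjusted p = 0.128) and Hfe, which regulates iron uptake, at -0.51 ± 0.20 (0.197). With normexp this Hfe probe differed by -0.06, and the second, brighter Hfe probe differed by -0.12 ± 0.125.

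Genes of the RT1 region that are not class I genes stand among the members on the chromosome. Of 93 probes for 76 such genes 3 rose and 3 fell (6.45%, beside 4.37% of all kept probes), with a median of -0.02. On 24 of the 93 probes the 2 groups lay apart, beside 13.4% of all kept probes. Col11a2, a cartilage collagen chain, rose by 1.1 ± 0.19 (adjusted p = 0.0135) and Ubd, a ubiquitin-like modifier, by 0.81 ± 0.19 (0.0447). Both probes are dim, and with normexp the differences were 0.59 for Col11a2 and 0.32 for Ubd. Ier3, an early response gene, changed by -0.92 ± 0.17 (0.0213) and Mdc1, a DNA damage adaptor, by -0.88 ± 0.08 (0.00035). Of the 8 omissions, the Ubd call survived only that of control replicate 2, and that of Ier3 was lost without control replicate 1 or disease model replicate 3, with leave-one-out differences of 0.68 to 0.99 for Ubd and -1.02 to -0.76 for Ier3.

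**Figure D5:**
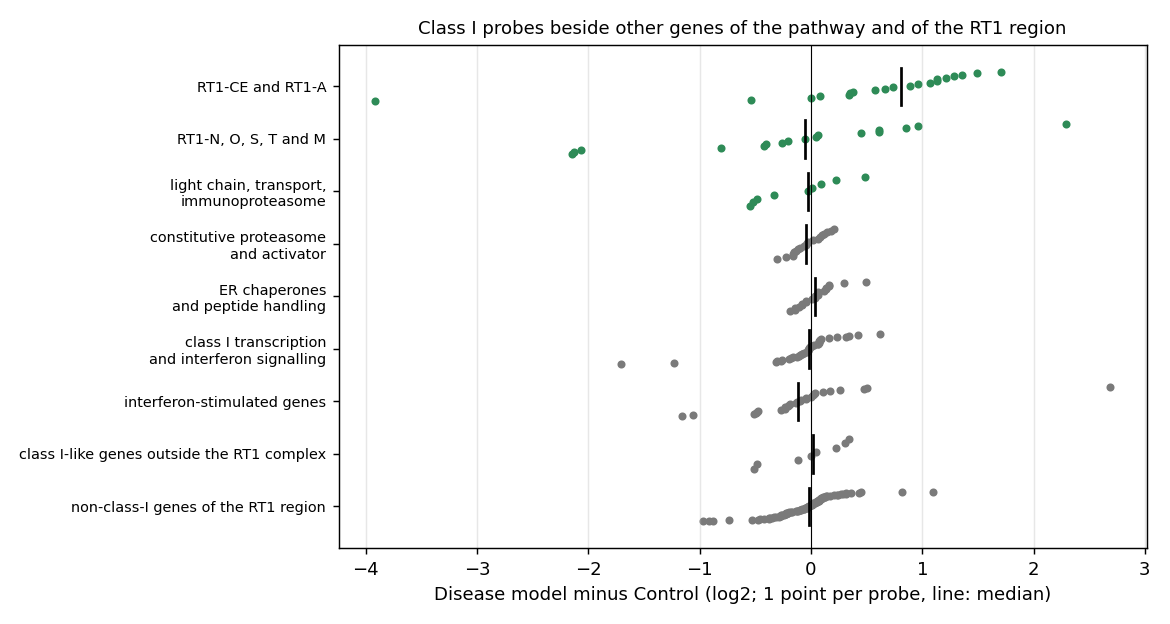
Difference (disease model minus Control, log2) of each kept probe, with 1 point per probe and a line at the median, for the members (green) and for the other pathway genes and the non-class-I genes of the RT1 region (grey). RT1 probes span -3.91 to 2.29, and most probes of the other lists lie within 0.5 of 0, apart from the rightmost point, Ifit1, which had no Control array well above background, so its difference is no measured size, and did not pass the threshold.

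Leukocytes carry much class I, so their markers are given beside the RT1 values. Of 21 probes for T cell and natural killer cell markers none passed and the median was -0.26, with Cd3d at -0.74 ± 0.18 (adjusted p = 0.0539) and Il7r at -0.66 ± 0.18 (0.0819). With normexp and with array weights both of these passed. The largest difference in the other direction was that of Ncr1 (0.97 ± 0.33, limma adjusted p = 0.144). Its probe was well above background on 2 Control and 3 disease model arrays. The summed linear signal of the list, in multiples of the 75th percentile, was 16.8 to 21.0 in Control and 12.2 to 28.8 in the disease model, the highest in replicate 4. The macrophage and dendritic cell list (19 probes) had a median of -0.18, a sum of 170.7 to 218.5 in Control and 188.2 to 279.4 in the disease model, again highest in replicate 4. One probe passed, that of Clec9a of cross-presenting dendritic cells (0.97 ± 0.22, adjusted p = 0.0412), a call that, of the 8 single-array omissions, survived only those of control replicate 2 or disease model replicate 3. In the other direction the largest difference of this list was that of Cd163 (-0.68 ± 0.17, limma adjusted p = 0.0613). It was not called, although its groups did not overlap. Of 8 probes for B cell markers Fcrla rose (0.80 ± 0.15, adjusted p = 0.0230), and sums were 18.8 to 22.2 in Control and 18.6 to 23.1 in the disease model. The median of these probes was -0.03, and Blk differed by -0.71 ± 0.24 (limma adjusted p = 0.139). Cd79a, Jchain, Ms4a1 and Mzb1 had no kept probe. Leaving out control replicate 1, 2 or 4 or disease model replicate 1 ended the Fcrla call (0.74 to 0.78). The part of leukocytes in the RT1 values was not tested.

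Among the markers of other cell types, none of 13 smooth muscle and none of 10 white adipocyte probes passed. Of the endothelial probes 1 of 15 rose (Flt1, 0.82 ± 0.15, limma adjusted p = 0.0212), and the median of the list was 0.13. Its largest difference in the other direction was that of Cldn5 (-0.43 ± 0.11, limma adjusted p = 0.0734), not called, with groups that did not overlap. Of the fibroblast probes 1 of 10 fell (Fbln1, -0.75 ± 0.13, limma adjusted p = 0.0173). The endothelial sum was 154.7 to 176.1 in Control and 169 to 199.5 in the disease model. The smooth muscle sum was 818.9 to 1091 and 852.6 to 1215. The fibroblast sum was 1161 to 1922 and 920.2 to 1841. The white adipocyte sum was 18.7 to 29.8 in Control and 16.6 to 70.9 in the disease model, the highest in replicate 4. Over all marker lists 1 probe was called lower with the 8 arrays and 12 without disease model replicate 4. The smallest p of the smooth muscle list were those of Lmod1 (0.63 ± 0.17, adjusted p = 0.0833, with its second probe at 0.06) and Acta2 (0.17 ± 0.13, 0.508), and those of the adipocyte list were of Lipe (0.83 ± 0.34, 0.222) and Fabp4 (0.93 ± 0.49, 0.336). Flt1 was read by 4 kept probes, of which the other 3 were not called (0.30 to 0.43), and Fbln1 by 2, the other at -0.21. The called Flt1 probe was well above background on 2 of 4 Control and 3 of 4 disease model arrays. It was thus kept through the disease model group alone, and with normexp its difference was 0.32. Leaving out control replicate 1, 2 or 3 or disease model replicate 1 ended the Flt1 call, and leaving out control replicate 1 or disease model replicate 2 that of Fbln1. Leave-one-out differences were 0.72 to 0.96 for Flt1 and -0.83 to -0.66 for Fbln1.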

How the data were processed

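Vessel RNA of 4 Control and 4 disease model rats was hybridised to 1-colour Agilent arrays after Cy3 labelling of 100 ng of total RNA, per the labels' protocols. The deposited scanner files hold spot intensity that Agilent Feature Extraction had background-subtracted, version 10.7.1.1 per the file headers and 12.1.1.1 per the submitters' processing notes. The deposited value table is a linear ratio, which equals the processed signal over a constant near each array's 75th percentile (0 to 3 of the 11412 to 11420 probes above 1 deviate by over 5%), with column medians of 0.086 to 0.101 and no centring on genes. It served as an alternative.

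Spots marked as outliers, 213 to 396 on an array, were dropped if the probe had another, spots were averaged on the log2 scale per probe, and the 75th percentile was subtracted. Symbols came from RefSeq's table for GRCr8 by accession, naming 21229 of 45598 probes (46.6%), with none of 6336 Ensembl-named probes. Unnamed probes may read further RT1 genes. Groups came from the sample titles. The groups were compared per kept probe with lmFit and eBayes of limma (version 3.58.1, under R 4.3.3), adjusted by Benjamini-Hochberg over 27822 probes, and tested on simulated data. All 8 arrays lie on 1 slide, with the groups in separate rows of it, so row and group cannot be told apart. The planned normexp correction used the median spot signal, because the mean signal was not used here.

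Members and lists were chosen with earlier results of these data known. Named were the 6 largest called differences in each direction, every loading gene, and up to 4 called genes, or the 2 with the smallest p, of each list. Ifit1, Cxcl9, Ncr1, Blk, Cd163 and Cldn5 were named as well, after their values were seen. Alternatives were normexp, quantile and median scaling, other filters, 1 probe per gene, outlier spots kept, the deposited table, a replicate block, array weights and each array left out. Counting RT1 probes alone was added after seeing the data. The number of arrays limits the precision.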

Additional observations from a re-analysis of the deposited data

Results flagged for a closer look

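In groups of 4 arrays, 1 array stood far from the other 3 in 8 of 162 groups looked at, where chance gives about 1 in 20. In 4 of the 8 it was control replicate 2 on a member probe, always the highest. Its level was -3.59 for RT1-M2 (others -4.27 to -4.23), 0.39 for RT1-CE15 (others -0.04 to 0.01), 2.40 for Tap2 (others 1.76 to 1.86) and 2.64 for Psmb8 (others 2.17 to 2.25). The other 4 were genes that are not members. Control replicate 1 was lowest for Psma4 at 3.36 (others 3.52 to 3.56), and control replicate 3 was lowest for Lnpep at -0.96 (others -0.59 to -0.53) and highest for Fcrla at -1.56 (others -1.81 to -1.80). Disease model replicate 4 was highest for the fat cell gene Fabp4 at 3.44 (others 1.28 to 1.48).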

How the results depend on the processing

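No called member changed sign under the alternatives run. Of 406 values of the 23 called probes, 377 kept direction and call and 29 kept the direction only. Without any 1 array, 15 to 21 member probes were called higher and 5 to 7 lower. Called lower were 9 with normexp and 2 with 1 probe per gene. In the latter the 3 RT1-T24-4 probes count once and RT1-N3 is read by its probe that was not called. Called higher with 1 probe per gene were 13, where RT1-CE3 is also read by its probe that was not called. Median centring and the lack of a detection filter ended the calls of RT1-M6-2, RT1-T18 and the second RT1-CE7 probe, and quantile scaling that of the RT1-CE7 probe. With the replicate block 14 were called higher and 4 lower, losing 1 probe each of RT1-CE13, RT1-N3, RT1-CE7, RT1-M6-2 and RT1-T18. Same-numbered arrays deviated together in 2 of 4 pairs (r -0.16 to 0.22), while for differently numbered arrays r ran from -0.23 to 0.25. Such values cannot settle whether the numbers pair the rats, so counts are given with and without the block.

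Over all kept probes 683 were called higher and 532 lower; 1299 higher and 728 lower with normexp, 414 and 302 without the detection filter, 397 and 313 with the block, 566 and 664 with quantile scaling, 463 and 740 with median centring, and 405 to 934 and 275 to 690 without 1 array. The pathway lists had 3 higher and 6 lower; 7 and 12 with normexp, 2 and 10 with quantile scaling, 4 and 10 with array weights, 1 and 7 with median centring, 1 and 3 without the filter, 0 and 3 with the block, and 1 to 3 and 3 to 9 without 1 array. The marker lists had 3 higher and 1 lower; 6 and 8 with normexp, 3 and 4 with quantile scaling, 3 and 4 with median centring, 0 and 1 without the filter, 2 and 3 with detection on all 8 arrays, 3 and 2 with the deposited table, 1 and 0 with the block, 3 and 8 with array weights, and 0 to 5 and 0 to 12 without 1 array. The cause was not tested. Dim probes such as RT1-O1 (2.29, and 1.52 with normexp) are limited by signal over background.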
